A study of Mus musculus with 2 samples.

Results

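Transcripts of 10 genes known as targets of the tumour suppressor p53 or as growth arrest genes were compared between hepatocytes that did and did not carry an activated form of ezrin. The genes were Cdkn1a, Btg2, Trp53inp1, Sesn1, Sesn2, Mdm2, Ccng1, Gadd45a, Gadd45b and Gadd45g, taken by symbol from the array annotation. They were read by 23 probe sets, each annotated to a single gene, of 34945 such probe sets for 18193 genes on the array. Both groups (EzrinT567D negative and EzrinT567D positive) were liver hepatocytes of male FVB mice, injected at 6 to 8 weeks of age through the tail vein by the hydrodynamic method, with 10 µg of a plasmid (PT3EF5α) for Ezrin T567D and 0.8 µg of pCMV/SB in 2 ml of saline. The fate of the second plasmid and the species of the ezrin are not described in the labels. Ezrin links the cell membrane to cortical actin, and in T567D an acidic residue stands in for the phosphorylated threonine of its active form. The labels call the positive cells GFP+ and the negative ones GFP-, both taken 1 week after the injection, so the controls also come from injected mice; how the cells were isolated and parted is not described there. Each group had 1 array. The labels conflict: free-text notes give 2 months for both arrays and a diet that differs, fast food for the EzrinT567D positive mice but chow for the others, while the remaining fields give chow and 1 week. A difference in diet and the presence of the transgene therefore cannot be told apart. Whether mice were pooled is not given in the sources used here.

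p53 is a transcription factor that is held low by Mdm2 and stabilised by DNA damage and other stress. It switches on genes that stop the cell cycle, repair DNA, adjust metabolism or start apoptosis, and its target Mdm2 closes a feedback loop by marking p53 for degradation. Several of its targets are also induced without p53: Btg2 and Gadd45b are classical primary response genes of growth factors and cytokines, and Sesn2 is a target of the stress factor Atf4. In the adult liver most hepatocytes rest outside the cell cycle and re-enter it after injury, when the Cdk inhibitor p21, the product of Cdkn1a, acts as a brake.

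Each value is a MAS5 signal of a probe set, a set of short probes near the 3′ end of a transcript, in linear intensity units scaled to the same trimmed mean of 500.0 in both arrays. The level taken as background, the floor, is the 95th percentile of 87 probe sets for smell, pheromone, taste and trace amine receptors. It was 272.4 for the negative array and 333.98 for the positive one. A transcript below its floor in 1 array has a bound, computed against that floor. With 1 array per group no test between groups exists, so "higher" and "lower" compare 2 arrays, and 1.5-fold and 2-fold serve as marks of size. The error that could be measured is that between probe sets: over 3141 genes with 2 probe sets above both floors, the paired log2 ratios differed with an SD of 0.41, and in 15.1% of the genes the gap reached 1.5-fold. The 8 hepatocyte markers with a probe set were above the floor in both arrays, with summed signals of 261475 in the negative array and 233876 in the positive one. Of 5 neutrophil markers 0 exceeded the floor in either array, and Pecam1, Cd68, Adgre1, Krt19, Epcam, Cd3e and Pdgfrb were below it in both. Markers above the floor numbered 4 and 3 of 11 for macrophages, 8 and 5 of 10 for endothelium, 7 and 7 of 11 for stellate cells and fibroblasts, 1 and 1 of 6 for cholangiocytes, 2 and 1 of 8 for lymphocytes and 1 and 1 of 2 for erythroid cells, in the negative and positive array in that order. Summed signals in the same order were 3499 and 2598.8, 5109.2 and 5204.6, 4147.4 and 4074.7, 1795.2 and 2658.7, 1240.8 and 1348.8, and 912.3 and 796.3, and 271.8 and 494.8 for neutrophils. Of these markers the endothelial Cdh5 (283.0 and 507.0), the lymphocyte gene Cd2 (348.0 and 549.6) and the cholangiocyte gene Tspan8 (1296.7 and 1965.8) were at least 1.5-fold higher in the positive array. The macrophage gene C1qb (1214.2 and 765.8) was at least 1.5-fold lower. The part of other cell types in the results below was not tested, and fewer cells of a type and less RNA per cell cannot be told apart. Both probe sets of Ezr were below the floors, so the arrays hold no check of the labels.

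Promoters are shown first for the 4 genes that came to stand farthest from no difference and have an entry (Btg2, Cdkn1a, Gadd45b and Sesn2) and for Mdm2, whose brightest probe set stood apart from the other two. The sequences are the 250 bases before an annotated start in RefSeq's GRCm38.p6 build, 5′ to 3′ on the gene's strand, and 9 of the 10 genes, all but Trp53inp1, had entries, with 11 starts between them. Capitals mark matches to a p53 half-site or full site, to TGACGTCA (the cyclic AMP response element), TGANTCA (AP-1), TGTTTAC (FOXO), the SRF CArG box or the NF-kB site, searched on both strands. A full p53 site was taken as 2 half-sites up to 13 bases apart, so each full site also counts as half-sites.
Btg2 (chr1:134079156-134079405, - strand): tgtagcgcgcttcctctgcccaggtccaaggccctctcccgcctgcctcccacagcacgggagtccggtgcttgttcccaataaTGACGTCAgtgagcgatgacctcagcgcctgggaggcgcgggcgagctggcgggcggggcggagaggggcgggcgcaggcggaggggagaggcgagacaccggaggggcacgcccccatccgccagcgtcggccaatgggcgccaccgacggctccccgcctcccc
Cdkn1a (chr17:29090729-29090978, + strand): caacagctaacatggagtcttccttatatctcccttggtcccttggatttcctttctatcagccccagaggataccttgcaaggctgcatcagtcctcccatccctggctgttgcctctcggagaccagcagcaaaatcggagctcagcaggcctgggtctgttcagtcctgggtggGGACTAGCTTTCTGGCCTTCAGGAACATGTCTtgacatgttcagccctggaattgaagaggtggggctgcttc
Mdm2 (chr10:117710759-117711008, - strand): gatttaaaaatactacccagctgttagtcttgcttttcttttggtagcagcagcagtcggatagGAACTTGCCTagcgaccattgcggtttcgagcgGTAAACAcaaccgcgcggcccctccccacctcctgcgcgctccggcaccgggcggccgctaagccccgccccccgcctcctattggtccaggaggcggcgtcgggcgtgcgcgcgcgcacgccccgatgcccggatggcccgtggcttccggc
Gadd45b (chr10:80929841-80930090, + strand): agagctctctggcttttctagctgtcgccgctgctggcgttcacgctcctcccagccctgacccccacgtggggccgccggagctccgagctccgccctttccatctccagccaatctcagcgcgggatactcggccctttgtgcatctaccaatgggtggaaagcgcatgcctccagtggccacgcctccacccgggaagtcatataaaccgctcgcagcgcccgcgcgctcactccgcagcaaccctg
Sesn2 (chr4:132510457-132510706, - strand): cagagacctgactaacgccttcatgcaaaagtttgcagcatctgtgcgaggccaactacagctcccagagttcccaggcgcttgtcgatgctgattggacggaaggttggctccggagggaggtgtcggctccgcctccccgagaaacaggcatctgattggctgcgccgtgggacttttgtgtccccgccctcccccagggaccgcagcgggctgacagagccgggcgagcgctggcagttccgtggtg

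The Cdkn1a stretch lies before the more upstream of its 2 annotated starts, and its capitals run from a half-site at 73 to 64 bases before the start to one at 51 to 42 bases before it. These letters match a full p53 site as taken here, which 21 of 32851 promoter stretches of this length held (0.0639%). The bases just after the capitals come close to a half-site but did not match its pattern, so they are left unmarked. Whether p53 binds the marked letters was not tested. A half-site alone was present in 7.13% of all stretches and in 5 of the 11 here, belonging to Ccng1, Cdkn1a, Gadd45a, Mdm2 and Sesn1. In Mdm2 it is the first run of capitals, and the second is a FOXO match on the other strand, a motif found in 3.17% of stretches. Btg2 held no p53 half-site and 1 copy of TGACGTCA, at 166 to 159 bases before the start, a motif present in 1.55% of stretches. Neither the Gadd45b nor the Sesn2 stretch held any of these motifs. AP-1, CArG and NF-kB matches were in 0 of the 11 stretches, against 6.75%, 1.47% and 7.25% of all. These matches describe letters within 250 bases of a start, and p53 is known to bind many of its targets farther away or in introns.

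The 10 genes did not move as a block. Btg2 and Trp53inp1 were at least 2-fold higher in Ezrin T567D-positive hepatocytes by their brightest probe sets, Gadd45b and Cdkn1a were higher from signals at background, Sesn2 was lower, and the other 5 genes differed by less than 1.5-fold in their brightest probe set. By that probe set 9 of 10 genes were higher at any size and 1 lower, against 46.1% and 47.9% of all genes. Of the 10, 2 were at least 2-fold higher, against 1.11% of the 9889 genes above the floor in at least 1 array, and 0 were 2-fold lower, against 0.597%. At 1.5-fold 3 were higher (Btg2, Trp53inp1 and Gadd45b) and 1 lower (Sesn2), against 6.11% and 4.04% of all genes. The median log2 ratio of the 10 was 0.23, beside 0.00 for all 9889 genes. The genes were chosen with results of these arrays already known, so these shares describe them and test nothing.

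**Figure D1:**
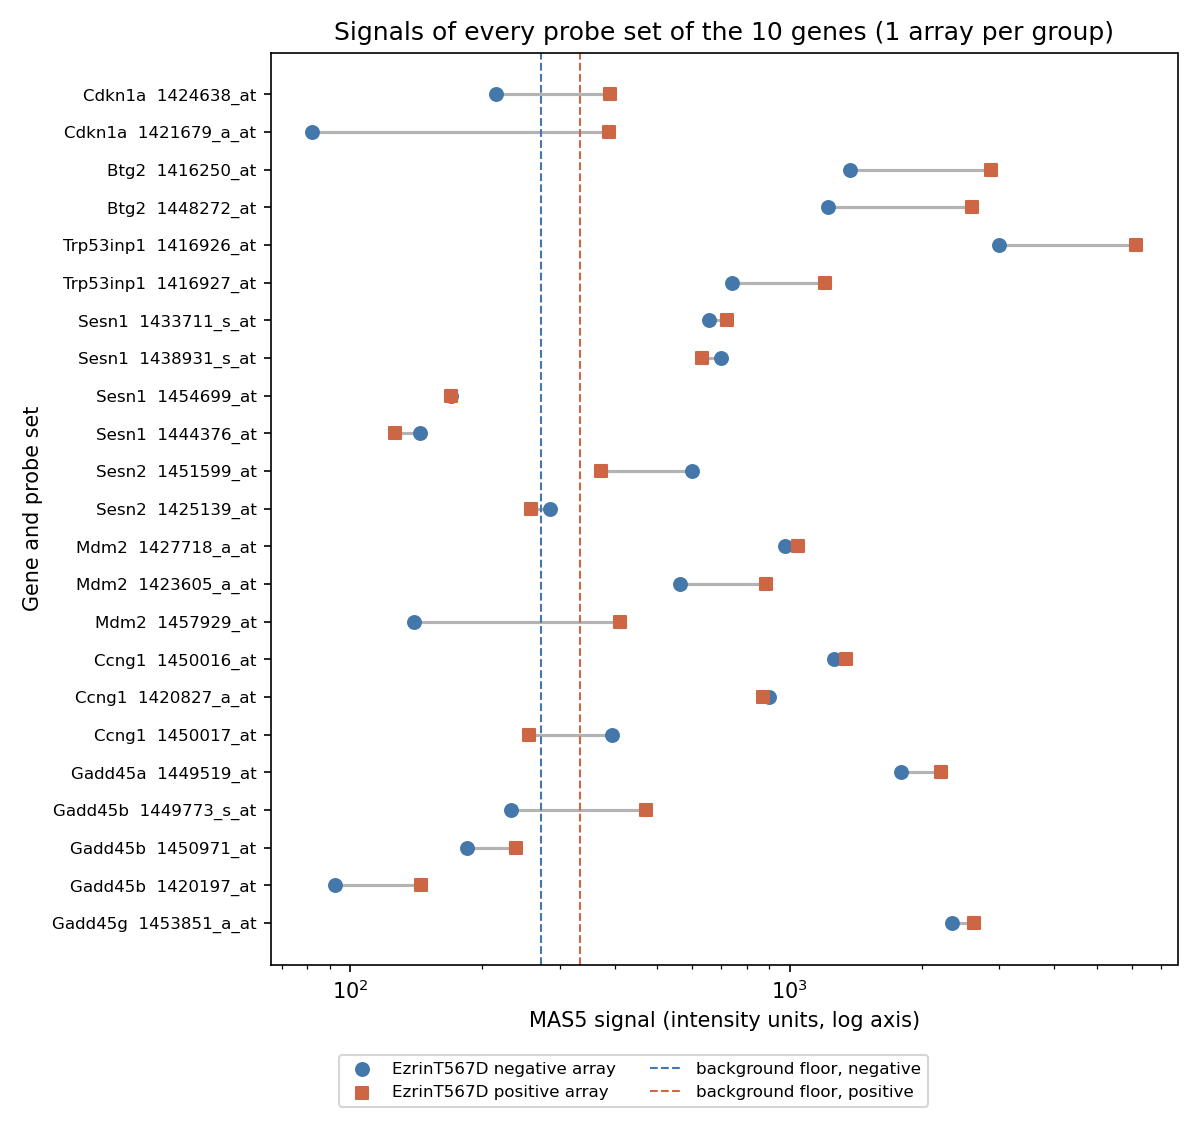
Signal of each of the 23 probe sets in the EzrinT567D negative (circles) and positive (squares) array, on a log axis in MAS5 intensity units, with the background floor of each array as a dashed line (272.4 and 333.98). Both probe sets of Btg2 and of Trp53inp1 lie to the right of the floors and are higher in the positive array, while the probe sets of Cdkn1a and Gadd45b start below the negative floor.

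Btg2 and Cdkn1a encode proteins that hold cells out of the cycle. Btg2, an antiproliferative protein that recruits the CCR4-NOT deadenylase to mRNAs, had signals of 1374.6 in the negative array and 2866.0 in the positive one in probe set 1416250_at. In 1448272_at they were 1221.5 and 2604.7. Both probe sets read well above the floors and gave 2.08-fold and 2.13-fold higher signals (log2 ratios of 1.06 and 1.09), a gap between them of 0.03. Of the 3141 genes with 2 probe sets above both floors, 10 (0.318%) were at least 2-fold higher in both, and Btg2 was 1 of them.

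Cdkn1a, which encodes p21, the inhibitor of cyclin-dependent kinases that carries much of the arrest by p53, was at background in negative hepatocytes. Its probe sets read 215.5 and 391.2 (1424638_at) and 82.1 and 387.5 (1421679_a_at) in the negative and positive array. Both exceeded the floor in the positive array alone. Positive hepatocytes were therefore at least 1.44-fold higher by the first and at least 1.42-fold by the second. The signals as deposited differ by 1.82-fold and 4.72-fold, but the negative values lie where signals of receptors not used by liver lie too. The size of this difference depends on the floor: it was a log2 ratio of 0.52 as reported, 0.63 with the negative floor of 252.66 obtained without Tas1r taste receptors, 0.50 with that of 276.6 obtained without receptor pseudogenes, 0.23 with 1 floor for both arrays and 0.20 after loess correction. With the 99th percentile floor Cdkn1a was below background in both arrays.

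Trp53inp1 encodes a nuclear protein that binds p53-activating kinases and also takes part in autophagy. Its brighter probe set, 1416926_at, read 2991.6 in the negative array and 6145.4 in the positive one, a 2.05-fold higher signal. The dimmer one, 1416927_at, read 740.7 and 1202.0, a 1.62-fold higher signal. The log2 ratios were 1.04 and 0.70, and their gap of 0.34 is within the SD of 0.41 between probe sets of one gene. Trp53inp1 and Btg2 were thus at least 1.5-fold higher in 2 probe sets, as were 36 (1.15%) of the genes with 2 such probe sets. As a mean over its probe sets the log2 ratio of Trp53inp1 was 0.87, and their sum gave 0.98, both under 2-fold.

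**Figure D2:**
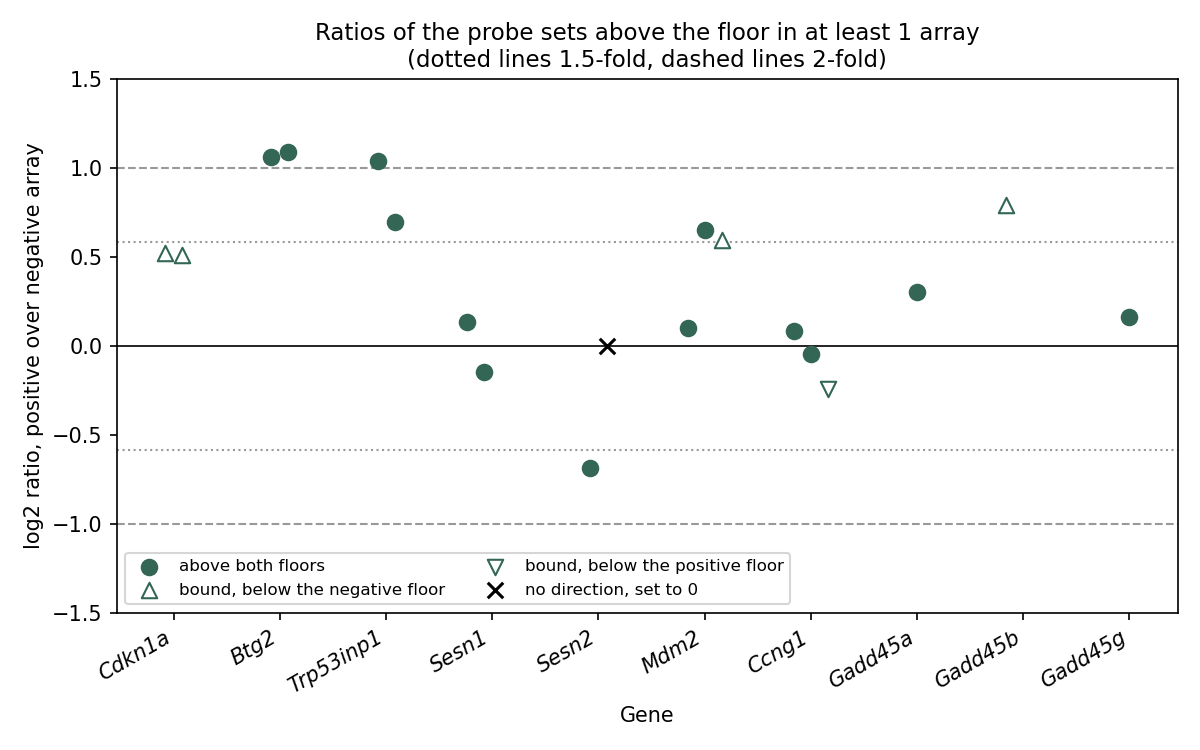
Log2 ratio (positive to negative array) for the 19 probe sets above the floor in at least 1 array, grouped by gene. Filled circles are above both floors, open triangles are bounds and the cross is a probe set without a direction. Btg2 and the brighter Trp53inp1 probe set pass the 2-fold line, Sesn2 is the only gene past the lower 1.5-fold line, and Mdm2 spans from 0.10 to 0.65.

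Sestrins are stress proteins that act by restraining mTORC1, the kinase complex that couples nutrients to growth, and Sesn2 also acts as a leucine sensor. Sesn1, the sestrin most tied to p53, read 657.0 and 720.9 in probe set 1433711_s_at and 699.9 and 631.5 in 1438931_s_at (negative, then positive). These ratios, 0.13 and -0.15 on the log2 scale, point in opposite directions and are both small. Its other probe sets, 1454699_at (169.7 and 170.1) and 1444376_at (144.1 and 126.6), were below both floors. Both Sesn1 probe sets above the floors end in _s_at, which marks probes shared with other transcripts. Without such probe sets Sesn1 had no value. Sesn2 read 599.9 in the negative array and 373.1 in the positive one (1451599_at), which is 1.61-fold lower. The second probe set of Sesn2 (1425139_at) read 285.5 and 258.4, above the floor in the negative array alone and without a direction, since the positive floor exceeds its negative signal. Sesn2 was the single gene of the 10 below 0, and the positive signal was close to the floor. The log2 ratio of -0.69 became -0.34 as a mean over probe sets, -0.49 as their sum and -0.50 with the 99th percentile floor, all under 1.5-fold. Only 2.44% of the 9889 genes had a ratio as low as that of Sesn2 or lower.

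Mdm2, the ubiquitin ligase that limits p53, was at least 1.5-fold higher in its 2 dimmer probe sets, the dimmest by a bound. In the brightest it was nearly equal. In the brightest, 1427718_a_at, it read 976.9 and 1046.8 (log2 ratio 0.10). In 1423605_a_at it read 562.9 and 885.5, a 1.57-fold higher signal (0.65). In 1457929_at it read 139.9 and 412.3, at least 1.51-fold higher from below the floor. No probe set of Mdm2 was lower in the positive array, and the gap of 0.55 between the brightest pair exceeds the SD of 0.41. Names ending in _a_at mark probe sets that bind several transcripts of 1 gene, and which Mdm2 transcripts each of these binds is not given in the sources used here. The mean over the 3 probe sets was 0.45 and their sum gave 0.48.

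Ccng1, cyclin G1, is a p53 target that brings phosphatase 2A to Mdm2. Probe set 1450016_at read 1265.3 and 1343.1 (0.09), and 1420827_a_at read 898.6 and 870.2 (-0.05). The third, 1450017_at, read 395.4 in the negative array and 256.0, below the floor, in the positive one, a bound of -0.24. The 2 brighter probe sets thus gave small ratios in opposite directions, and the direction of the third differed from that of the brightest.

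The Gadd45 proteins are small stress sensors that bind the kinase Map3k4, p21 and PCNA, and of the 3 genes Gadd45a is the one best known as a p53 target. Gadd45a read 1795.9 and 2212.4 in its single probe set, 1449519_at, 1.23-fold higher in the positive array. Gadd45g read 2337.1 and 2621.1 in 1453851_a_at, 1.12-fold higher. Both are bright, with ratios of 0.30 and 0.17, and neither has a second probe set to set beside the first. The SD of 0.41 describes gaps between paired probe sets, so it does not give the error of these single ratios. Gadd45b read 233.0 and 471.9 in 1449773_s_at, above the floor in the positive array alone and at least 1.73-fold higher there. Its probe sets 1450971_at (184.3 and 239.3) and 1420197_at (92.5 and 145.1) were below both floors, with the positive signal the higher one in each. The suffix _s_at marks probes shared with other transcripts, and without such probe sets Gadd45b had no value. Its log2 ratio of 0.79 was 0.50 after loess correction, 0.50 with 1 floor for both arrays and 0.48 with the 99th percentile floor, and 0.90 with the floor without Tas1r.

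Against all 9889 genes, Btg2 held rank 90 and Trp53inp1 rank 98 from the highest ratio, with 0.910% and 0.991% of genes at or above them. Gadd45b stood at rank 260 and Cdkn1a at 778 by their bounds. The ratios of Gadd45a, Gadd45g, Sesn1, Mdm2 and Ccng1, from 0.09 to 0.30, fell between the 10th and 90th percentiles of all genes, at -0.40 and 0.46. Counted by probe set, 14 of the 19 above a floor were higher, 4 lower and 1 without direction. Of all 16151 probe sets of single genes above a floor, 7703 were higher, 7330 lower and 1118 without direction. Of the 19, 7 were at least 1.5-fold higher (against 7.05% of the 16151), 1 at least 1.5-fold lower (3.75%) and 3 at least 2-fold higher (1.26%). Probe sets of 1 gene share their transcript and are not independent, and the 7 belong to Btg2, Trp53inp1, Mdm2 and Gadd45b.

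**Figure D3:**
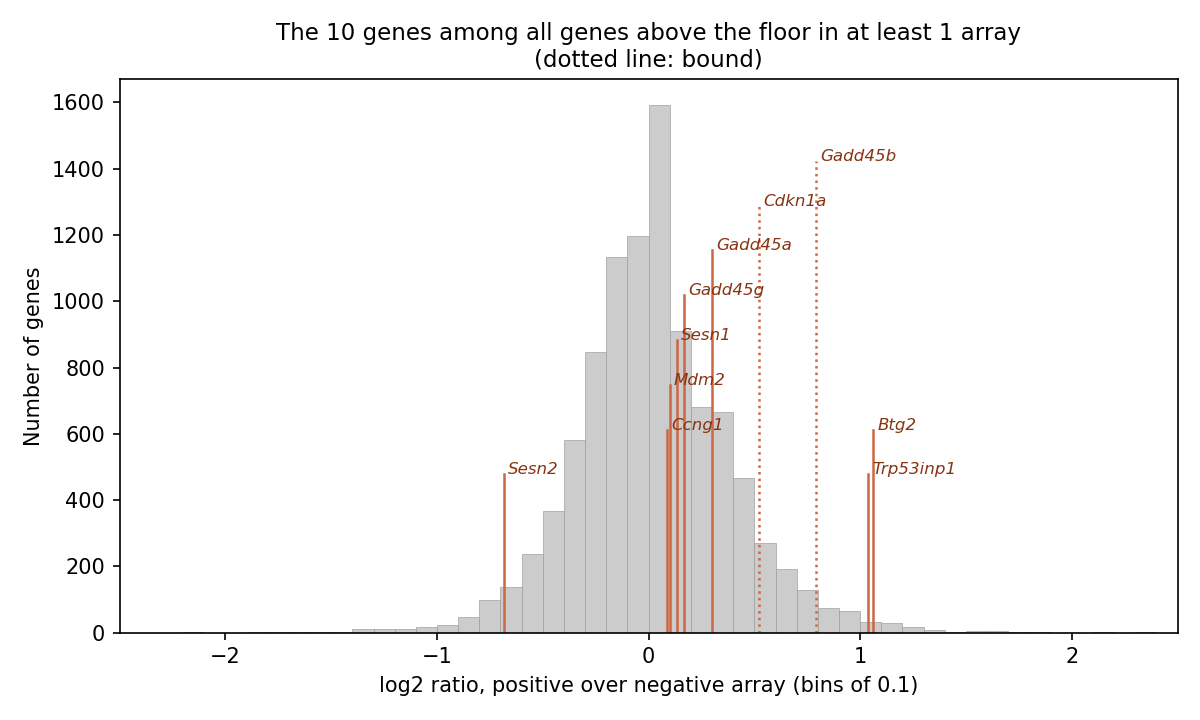
Histogram of the log2 ratios of the 9889 genes above the floor in at least 1 array, in bins of 0.1, with the number of genes on the vertical axis and the 10 genes as lines (dotted for bounds; line heights only separate the names), and the bin from 0 up holds the 600 genes without direction. Btg2 and Trp53inp1 lie in the upper tail, Sesn2 in the lower one, and 5 genes between 0.09 and 0.30 lie in the bulk.

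Other targets of p53 were not higher as a list. Of 60 listed genes 56 had a probe set of their own and 38 exceeded a floor. By the brightest probe set 14 genes read higher, 21 lower and 3 had no direction, at a median log2 ratio of -0.03. Of the 38, 3 were at least 1.5-fold higher and 0 at least 1.5-fold lower, against 6.11% and 4.04% of all genes. The highest were the stress kinase Plk3 (87.1 in the negative array and 578.4 in the positive one, at least 2.12-fold), Notch1 (521.3 and 815.3) and cyclin D2, Ccnd2 (370.5 and 569.4). A second Notch1 probe set read lower (419.0 and 290.8). The other Ccnd2 probe sets were below both floors, some reading higher and some lower. Prkab1 had a log2 ratio of 0.12 in its brightest probe set but -0.66 in its other one (663.1 and 419.0). The lowest were the DNA repair enzyme gene Mgmt (529.0 and 360.4), the peptide transporter gene Tap1 (875.4 and 602.6) and Ei24 (5031.5 and 3771.6). The apoptosis genes Bbc3 (57.3 and 68.2) and Pmaip1 (49.4 and 103.0) were below both floors, as were Phlda3 (58.1 and 84.6) and Zmat3 (90.1 and 150.4). Other apoptosis genes of the list were above both: Perp (3854.5 and 3754.3), Aen (1467.3 and 1298.2) and Fas (516.2 and 393.0) had log2 ratios of -0.04, -0.18 and -0.39. A dimmer Aen probe set above both floors read higher (443.0 and 490.0, 0.15). Of further targets above both floors, Ephx1 (5960.1 and 5894.9), Rps27l (12956.8 and 11464.1) and Plk2 (960.1 and 766.9) had log2 ratios of -0.02, -0.18 and -0.32, while Lpin1 (1039.0 and 1279.7), Ddb2 (1553.9 and 1670.5) and Foxo3 (1867.4 and 1926.3) had 0.30, 0.10 and 0.04. These 3 and Perp, Aen and Fas were chosen after their values were seen.

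Regulators of p53 differed little. In 18 genes above a floor there were 12 higher and 5 lower readings and a median of 0.10, and 1 passed 1.5-fold, the p53 relative Trp73 (309.8 and 472.3), from a signal near the floor. Sirt1 (244.5 and 356.2, at least 1.31-fold) and the Mdm2 partner Mdm4 (485.1 and 605.0) came next, and the ubiquitin ligase Cop1 (2736.8 and 2179.4), Trp53bp2 (1267.5 and 1063.7) and Trp53bp1 (2361.0 and 2058.4) were lowest, with another Trp53bp1 probe set at 0.58 (299.4 and 447.2). The phosphatase Ppm1d, a p53 target that turns the response off, read 340.3 and 447.0 (0.39). The p53 transcript itself was not analysed here.

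Genes related to the 10 by family or function read in both directions. Of 8 Cdk inhibitors, retinoblastoma family and antiproliferative genes above a floor, 3 were higher and 4 lower, 0 by 1.5-fold, with a median of -0.09. Btg1, the nearest listed relative of Btg2, read 3658.5 and 2569.9 (-0.51) and was lower in its second bright probe set too (-0.31). Tob1, of the same family, read 4309.6 and 3830.5 (-0.17), while the Cdk inhibitor gene Cdkn1b read 1095.9 and 1460.8 (0.41) with another probe set at -0.26. Sesn3, the third sestrin, read 779.0 and 526.7 (-0.56) in its brightest probe set and 212.2 and 492.6, a bound of 0.85, in the other. Cdkn2c (0.12), Tob2 (0.02) and Rbl2 (-0.43) completed the highest and lowest of this list. Dimmer Tob2 probe sets ranged from -0.11 to 0.65, the highest reading 600.2 and 941.6. Genes of the mTORC1 sensing machinery on which sestrins act had a median of -0.05 over 22. By the brightest probe set Lamtor3 (1250.1 and 683.0, 1.83-fold lower) was the single one past 1.5-fold. Their highest were Tsc1 (0.38), Nprl3 (0.29) and Rraga (0.20), and Lamtor4 (-0.37) and Sec13 (-0.28) followed Lamtor3 among the lowest. Dimmer Seh1l probe sets above a floor ranged from a bound of -0.66 (529.4 and 309.2) to 0.37. Stress kinases and phosphatases listed around Gadd45 had a median of 0.13 over 10, with 7 higher and 3 lower and 0 past 1.5-fold by the brightest probe set. The phosphatase gene Dusp10 (0.56), Map2k6 (0.37) and Map3k5 (0.34) were highest and Map2k3 (-0.58), Map2k4 (-0.25) and Mapk14 (-0.14) lowest. Dimmer probe sets of these genes read otherwise: Mapk14 gave 0.69 (486.5 and 785.4), 0.78 (308.1 and 529.0) and a bound of 0.41, besides -0.10 in another. Map3k5 gave 0.81 (556.3 and 976.7), Map2k4 0.16 and Map2k3 0.10.

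Of the genes listed for Atf4, which also induces Sesn2, and for the integrated stress response, 8 of 15 read higher and 6 lower (median 0.09). Among them 4 were at least 1.5-fold higher. These were the lipoprotein receptor gene Vldlr (321.3 and 922.6), Atf3 (1674.5 and 3912.9), the phosphatase subunit gene Ppp1r15a (351.5 and 579.1) and Ddit3 (413.7 and 668.9). The other Vldlr probe sets were below both floors, and the negative signal of 321.3 is near the floor. Trib3 read 466.0 and 688.9 (0.56), and Asns was below both floors. Sesn3, the mTORC1 inhibitor Ddit4 (670.2 and 488.9) and Xbp1 (9563.7 and 8513.3) were lowest. Other Xbp1 probe sets gave -0.09, 0.00 and 0.17. Cell cycle genes had a median of 0.23 over 19, with 15 higher and 4 lower. The replication helicase genes Mcm4 (255.7 and 658.0, at least 2.42-fold) and Mcm7 (413.5 and 938.9) and the proliferation marker Mki67 (216.9 and 540.5, at least 1.98-fold) led, from signals at or near background. Ccne1 (-0.42), Pcna (-0.11) and Ccnd3 (-0.08) were lowest. The other Mcm4 probe set was below both floors (220.9 and 284.8). Other Mcm7 probe sets above both floors gave 0.72 and 0.11, and another Ccne1 probe set 0.02.

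**Figure D4:**
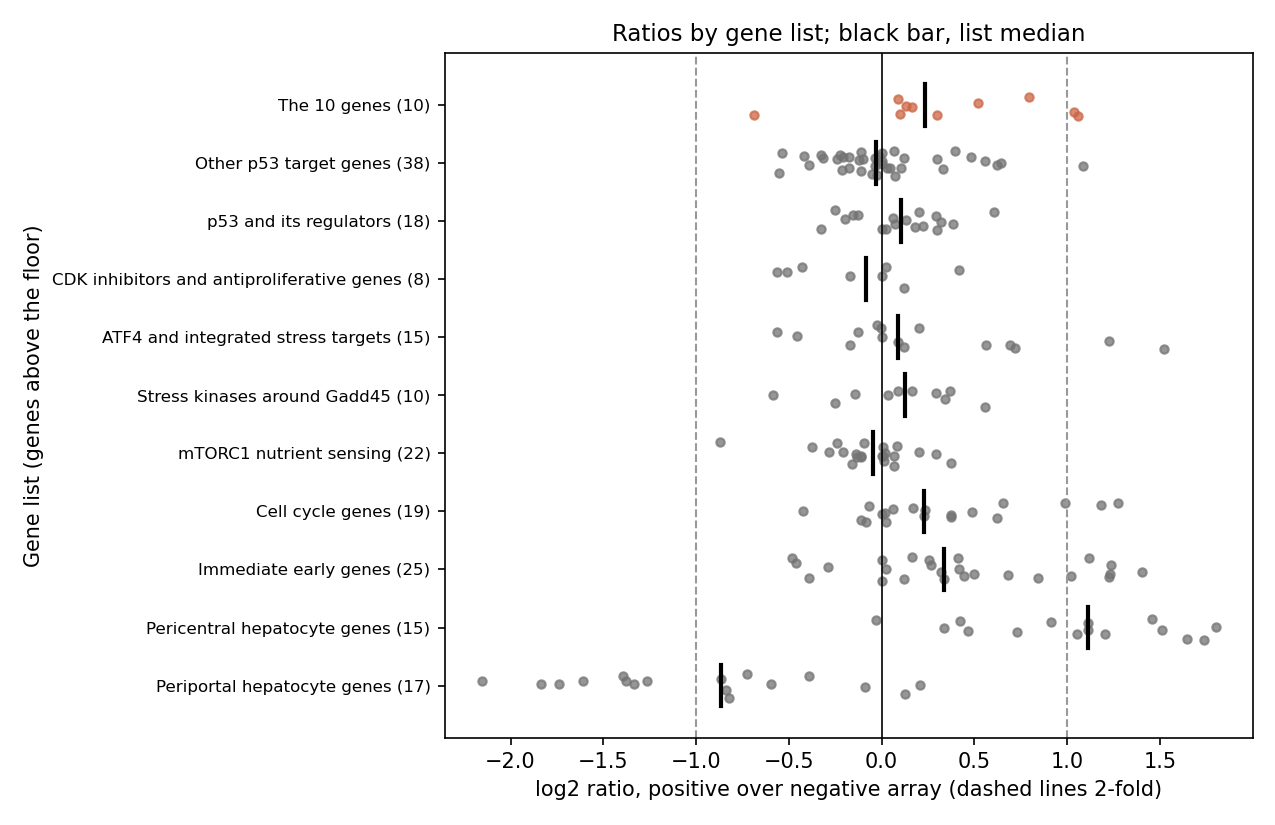
Log2 ratio of each gene above the floor in at least 1 array, by gene list, with the number of genes in brackets and the list's median as a black bar. The 10 genes have a median of 0.23, other p53 targets one of -0.03, immediate early genes 0.34, and the pericentral and periportal lists 1.11 and -0.87.

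Other programmes differed between the arrays together with these genes. Immediate early genes, which growth factors, stress and tissue dissociation induce quickly, had a median of 0.34 over 25: 19 were higher and 4 lower, with 8 at least 1.5-fold higher and 0 at least 1.5-fold lower. Maff (851.8 and 2252.6), Klf6 (726.8 and 1711.9) and Ier2 (677.2 and 1590.7) led, while Klf2, Nr4a2 and Socs3 were lowest (-0.48, -0.46 and -0.39). Genes of hepatocytes around the central vein had a median of 1.11 over 15, 14 of them higher, and periportal genes one of -0.87 over 17, 15 of them lower. Signals of probe sets at the 3′ end over those at the 5′ end, which grow as RNA breaks, gave 0.970 (negative array) and 0.864 (positive) for Actb. For Gapdh they gave 3.46 and 3.13. The part of the early response, of lobular zone and of RNA integrity in the ratios of Btg2, Trp53inp1, Gadd45b, Cdkn1a and Sesn2 was not tested. The lists of this paragraph were written after the signals had been seen.

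Of the 10 genes, Btg2 kept a ratio of at least 2-fold under all 13 alternative settings (1.06 to 1.09), and Trp53inp1 was at least 1.5-fold higher in 13 and 2-fold higher in 11 of them. The count at 2-fold was 1 with ratios averaged over probe sets, since Trp53inp1 dropped below the mark. Gadd45b had a value in 11 settings and passed 1.5-fold in 8, and Cdkn1a had a value in 11 and passed it in 3. For Cdkn1a these include the sum, where negative signals that are each below the floor pass it when added. Sesn2 was lower in all 13 and past 1.5-fold in 10, while Sesn1 and Ccng1 changed sign where probe sets were averaged or summed (to -0.01 and -0.02 for Sesn1 and to -0.07 and -0.05 for Ccng1).

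**Figure D5:**
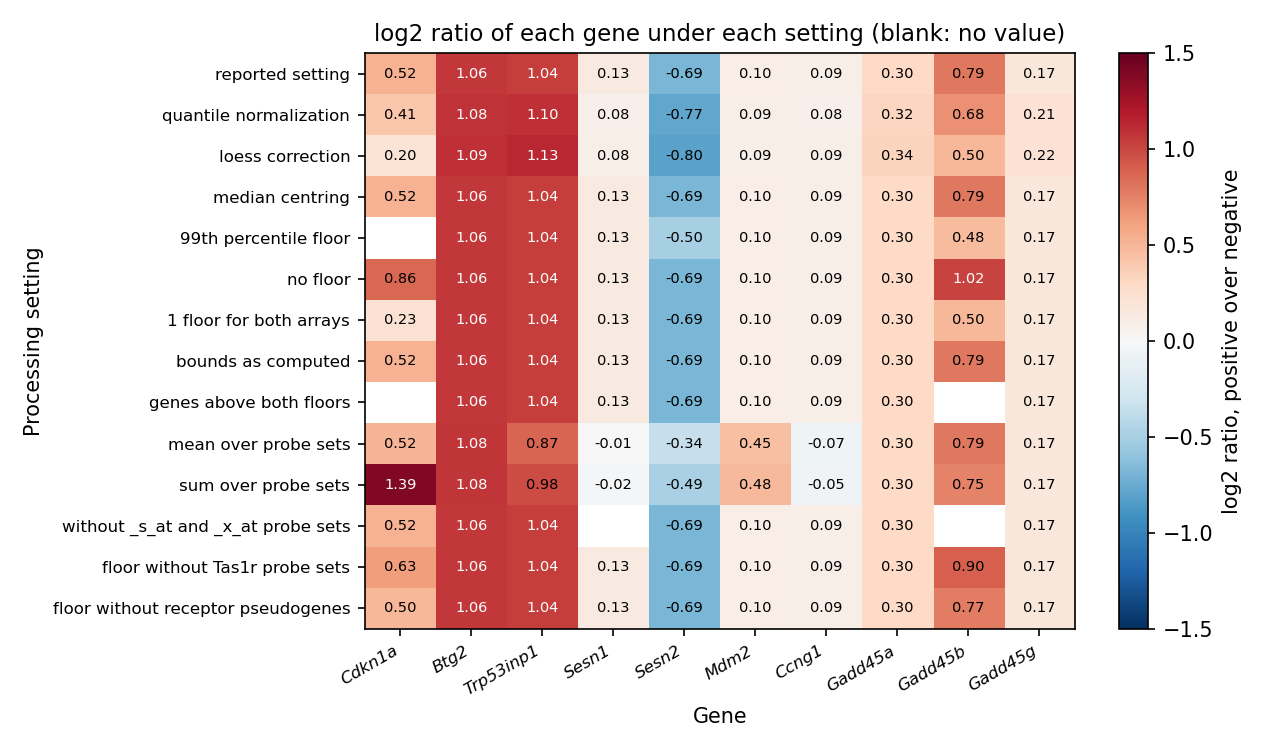
Log2 ratio of each of the 10 genes (columns) under the reported setting and 13 alternatives (rows), red for higher and blue for lower in the positive array, blank where the gene had no value. The Btg2 column runs from 1.06 to 1.09, whereas Cdkn1a runs from 0.20 to 1.39 and is blank in 2 rows. Its highest value is from the sum, which adds negative signals that are each below the floor.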

How the data were processed

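The deposited values are probe set intensities of Affymetrix arrays on a linear scale, made with MAS5 per the submitters' processing notes, which as used here give no version or settings. Biotin-labelled cRNA came from 6 µg of total RNA, per the labels' protocols. Of 45101 probe sets 34945 had 1 gene symbol in the platform annotation, 932 several, 9160 none and 64 were controls, and only the first kind was used. The brightest probe set stood for a gene. A bound that pointed away from the measured side was set to 0 and called without direction. Positive signals were divided by negative ones and taken to log2, with Python 3.11.15, numpy 2.4.6, pandas 2.3.3 and statsmodels 0.14.6, in scripts tested on simulated data. Genes named outside the 10 were the 3 highest and 3 lowest of each list, a preset set of p53, stress and arrest genes, and markers. Members and lists were chosen with earlier results of these data known. The immediate early and zonation lists and the floors without Tas1r or without pseudogenes were added after the signals were seen. Ratios depended on signal, with a median on the log2 scale of 0.08 (4374 genes up to a mean signal of 1000) against -0.12 (346 genes above 10000). With 1 array per group, precision between animals is unknown.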

Additional observations from a re-analysis of the deposited data

How the results depend on the processing

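The 13 alternatives were quantile normalization, loess correction, median centring, a 99th percentile floor, no floor, 1 floor for both arrays, bounds as computed, genes above both floors, the mean and the sum over probe sets, no _s_at or _x_at probe sets, and the floors without Tas1r and without receptor pseudogenes, the last 2 chosen after seeing the data. Of 52 comparisons for the 10 genes as a group (the counts at 2-fold and 1.5-fold and the median), 48 stayed within 1.5 times the count or within the probe set SD. The count at least 2-fold higher became 1 with the mean over probe sets, and the count at least 1.5-fold lower became 0 with the 99th percentile floor, the mean and the sum. The construction of these alternatives shows how: they bring in the dimmer probe set or raise the floor. For single genes, only Cdkn1a with the sum (1.39) moved by more than that SD. The sum was held to the floor of a single probe set. The negative Cdkn1a signals (215.5 and 82.1), each below the floor of 272.4, pass it when added, so 1.39 rests on background readings. The share of higher calls among all genes past 2-fold was 65.1% as reported, 51.0% after loess and 49.5% without a floor, which gave 1589 higher and 1618 lower genes instead of 110 and 59. Counts at 1.5-fold in the other lists ran from 1 to 9 higher (3 reported) and 0 to 5 lower (0) for p53 targets, 3 to 8 higher (5) and 0 to 2 lower (0) for cell cycle genes, and 0 to 2 higher (1) and 0 to 2 lower (0) for p53 regulators. They ran from 3 to 6 higher (4) and 0 to 2 lower (0) for Atf4 and integrated stress genes, 0 to 2 higher and 0 to 1 lower (0 and 0) for stress kinases, 0 to 1 each way (0 and 0) for Cdk inhibitors, 1 to 2 lower (1) for mTORC1 genes, and 8 to 10 higher (8) and 0 to 2 lower (0) for immediate early genes. All genes at 1.5-fold were 604 higher and 400 lower, but 404 and 581 after loess and 3034 and 2795 without a floor. No paired analysis was possible because each group holds 1 array. Nor could a sample be left out. Signals near the floor limit Cdkn1a, Gadd45b and the positive reading of Sesn2.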
